A study of Homo sapiens with 12 samples.

Results

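The nuclear genes of the mitochondrial respiratory chain were followed in human breast tumours grown in mice and treated with an inhibitor of p38, an inhibitor of EZH2, or both. The members were taken by symbol: every line of the count table whose name begins with NDUF, with UQCR, with SDH followed by A to D, with COX4 to COX8, or with ATP5. This gave 106 of the 25369 symbols. Of these, 94 name a subunit, a tissue-restricted subunit isoform, an assembly factor or a related protein, and the other members are pseudogenes, near-identical copies, antisense transcripts or read-through transcripts. Neither the symbol rule nor the grouping into complexes uses the measured values, although the members were chosen with earlier results of these data known.

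All 4 groups share 1 established cell line, MDA-MB-231, which was derived from a triple-negative breast cancer. Cells in 50 µl of Matrigel were placed in the inguinal mammary fat pad of 10 mice per group, and injections on 5 days per week began at a tumour volume of 100 mm3. The combination group received SB202190 and EPZ-6438, the p38i group SB202190 at 1 mg/kg/day (a p38 MAP kinase inhibitor) and the EZH2i group the EZH2 inhibitor at 10 mg/kg/day, whose code the labels spell both EPZ-6428 and EPZ-6438. Per the protocol, control mice received the solvent, 4% DMSO, 30% PEG 300 and 5% Tween 80, although their treatment label reads None. The same solvent is recorded for all 4 groups. RNA of 3 tumours per group was sequenced, giving 12 libraries, named here by group and tumour number. Column 5 of the table is named by 2 p38i samples and column 6 by none, so the libraries p38i col5 and p38i col6 carry no tumour number, and col6 was placed with p38i by elimination. The mouse strain, the length of treatment and any removal of mouse reads are not given in the sources used here.

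The respiratory chain passes electrons from NADH and succinate to oxygen and uses the energy released to pump protons across the inner mitochondrial membrane. Complex I (the NDUF genes) oxidises NADH, complex II (SDH) oxidises succinate and is also an enzyme of the TCA cycle, complex III (UQCR) passes electrons from ubiquinol to cytochrome c, complex IV (COX) reduces oxygen, and complex V (ATP5) makes ATP as protons flow back. Apart from complex II, which is wholly nuclear encoded, each complex joins nuclear and mitochondrially encoded subunits. Many of the nuclear genes carry sites for NRF1, for ETS family factors such as GABP and for YY1 near their start sites. MDA-MB-231 is known as a strongly glycolytic line that keeps a working respiratory chain.

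Promoters were read from RefSeq for 76 of the members (build GRCh38.p14; the counts were made on hg19, so these positions apply to the printed sequence only). The motifs searched on both strands were GCGCA and GCGC with any 1 base between them for NRF1, CCGGAAG for ETS factors and AAGATGGCG for YY1. NRF1 matches were found in 17 member promoters (22.4%), against 5.8% of all 35116 promoters in the table and 7.4% of the 22199 of protein-coding genes. ETS matches were found in 21 (27.6%), against 10.3% of all and 12.8% of protein-coding promoters. YY1 matches were found in 8 (10.5%), against 1.7% and 2.4%. No motif match overlapped a match of another motif. None of the 3 motifs was held by 37 of the 76 member promoters (48.7%), against 83.9% of all and 79.6% of protein-coding promoters. Printed below, 5′ to 3′ on the strand of the gene, are the promoters of 4 genes picked from the results that follow. SDHD and SDHB of complex II and NDUFB3 of complex I varied widely between tumours of 1 group. They were highest in the same library of each group. UQCR11 of complex III was below the controls in every treated tumour, as were 3.33% of all genes tested. Capitals mark motif matches on either strand. The SDHD promoter (chr11:112086623-112086922, plus strand) holds an NRF1 and an ETS match, and that of SDHB (chr1:17053983-17054282, minus strand) an ETS and a YY1 match. The NDUFB3 promoter (chr2:201071751-201072050, plus strand) holds no match. The UQCR11 promoter (chr19:1605413-1605712, minus strand) holds 2 ETS and 2 NRF1 matches.
SDHD: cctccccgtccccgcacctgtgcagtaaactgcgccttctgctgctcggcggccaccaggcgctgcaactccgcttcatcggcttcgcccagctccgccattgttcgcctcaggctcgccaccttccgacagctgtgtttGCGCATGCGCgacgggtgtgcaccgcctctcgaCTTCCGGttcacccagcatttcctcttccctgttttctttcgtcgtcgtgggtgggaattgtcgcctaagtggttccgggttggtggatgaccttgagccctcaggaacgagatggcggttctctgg
SDHB: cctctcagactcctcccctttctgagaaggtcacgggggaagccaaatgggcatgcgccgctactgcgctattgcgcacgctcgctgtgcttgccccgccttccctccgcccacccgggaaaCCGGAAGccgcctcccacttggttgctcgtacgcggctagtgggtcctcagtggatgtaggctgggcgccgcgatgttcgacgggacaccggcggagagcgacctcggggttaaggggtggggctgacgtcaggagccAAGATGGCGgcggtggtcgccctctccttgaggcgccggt
NDUFB3: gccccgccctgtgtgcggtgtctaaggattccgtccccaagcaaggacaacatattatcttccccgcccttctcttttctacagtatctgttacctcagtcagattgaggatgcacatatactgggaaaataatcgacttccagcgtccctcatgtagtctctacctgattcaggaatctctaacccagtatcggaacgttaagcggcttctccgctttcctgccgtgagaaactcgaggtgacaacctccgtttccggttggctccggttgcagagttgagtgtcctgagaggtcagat
UQCR11: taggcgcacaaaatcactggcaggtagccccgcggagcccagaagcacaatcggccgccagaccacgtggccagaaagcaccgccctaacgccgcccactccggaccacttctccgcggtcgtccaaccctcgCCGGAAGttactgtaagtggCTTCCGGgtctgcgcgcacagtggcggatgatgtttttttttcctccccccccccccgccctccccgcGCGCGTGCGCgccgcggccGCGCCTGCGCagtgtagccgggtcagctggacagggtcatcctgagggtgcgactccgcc

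Libraries held between 2208771 and 4467942 counts. Markers of the cell line were present in every library: VIM, a mesenchymal filament protein, lay between 3774 and 6376 CPM (counts per 1e6 counts of the TMM-scaled library) and the summed markers of the line between 8265 and 10582 CPM. Summed adipocyte markers stayed between 1.96 and 13.4 CPM and endothelial markers between 8.45 and 28.8 CPM. Fibroblast markers summed to 538 to 1119 CPM in combination, 284 to 884 in p38i, 634 to 977 in EZH2i and 455 to 952 in control libraries. Summed macrophage markers lay between 25.8 and 58.2 CPM, heart and slow muscle markers between 23.2 and 86.8 CPM and erythroid markers between 0.833 and 21.3 CPM. The heart and slow muscle sum was mostly TNNT1 (23.2 to 86.5 CPM), the only gene of its list with enough counts to be tested. MYL2 of that list had 0 CPM in every library. The library p38i col6 stood apart in skeletal muscle markers, with a sum of 2196 CPM against 63.6 to 247 CPM in the other 11 libraries. MALAT1, a nuclear RNA, was lower in each treated library (16372 to 23779 CPM in combination, 17551 to 27722 in p38i and 14659 to 28237 in EZH2i tumours) than in any control (32238 to 40163). The part of MALAT1 and of these markers in the results below was not tested. In bulk tumours fewer cells of a type and less RNA per cell cannot be told apart. Any fibroblasts, vessel, blood or muscle cells would be of the mouse, while the reads were mapped to the human build hg19. Whether a marker count came from the human line itself or from mouse reads placed on a human gene cannot be told apart here.

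No respiratory chain gene changed past the threshold in any comparison, while a few of them, NDUFB3, SDHD, ATP5E and SDHB first, differed widely between libraries inside the groups. Of the 106 members, 91 had enough counts to be tested among 12514 genes. edgeR's quasi-likelihood test called 0 of the 91 at an adjusted p under 0.05 in the combination against control, where it called 0.00799% of all genes. It called 0 in p38i against control, where 1.77% of all genes were called (221 genes), and 0 in EZH2i against control, where 0.216% were called. DESeq2 and limma-voom also called 0 members in each of these. At an unadjusted p under 0.05, edgeR had 9 members in the combination comparison (16.3% of all genes), 6 in p38i (18.4%) and 5 in EZH2i (14.7%), each a smaller share of the 91 (9.89%, 6.59% and 5.49%) than of all genes tested. The 3 comparisons share the same 3 control libraries.

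The members together took 1.35% to 1.55% of the counts in combination, 1.47% to 1.61% in p38i, 1.34% to 1.49% in EZH2i and 1.31% to 1.54% in control libraries. Summed over its subunits and assembly factors, complex I came to 4369 ± 477 CPM in combination, 4655 ± 271 in p38i, 4169 ± 237 in EZH2i and 4552 ± 336 in control tumours (SD, n = 3 each). Complex II came to 330 ± 43.9 CPM in combination, 276 ± 40.1 in p38i, 248 ± 52.4 in EZH2i and 261 ± 87.5 in control tumours. The SD of complex II was largest in the controls. Complex III came to 1738 ± 188, 1900 ± 110, 1845 ± 193 and 1969 ± 138 CPM in combination, p38i, EZH2i and control tumours. In the same order of groups, complex IV came to 3581 ± 226, 3778 ± 145, 3567 ± 333 and 3440 ± 489 CPM, and complex V to 3936 ± 389, 4279 ± 348, 4003 ± 544 and 4227 ± 230 CPM. Every treated group overlapped the controls in each of the 5 sums.

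**Figure D1:**
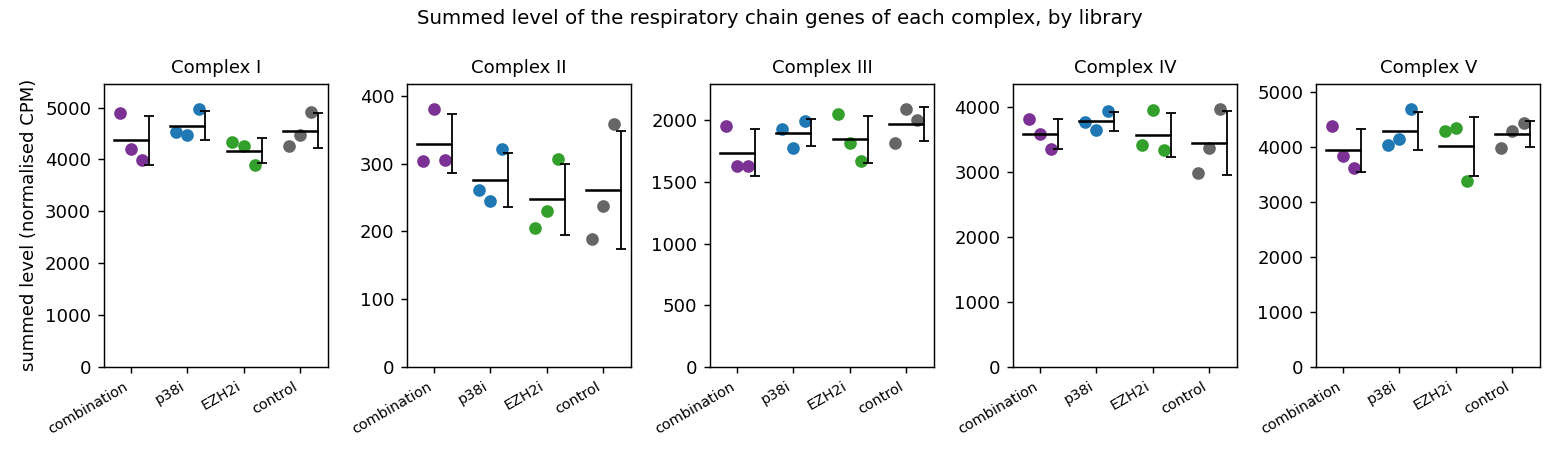
Summed level of each complex (vertical axis, normalised CPM, from 0) in each library, with groups along the horizontal axis. Points are libraries, horizontal lines are means of 3 and whiskers are SD; treated points overlap the control points in all 5 panels, and complex II reaches from 188 to 358 CPM within the control group alone.

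The median log2 fold change of the 91 members was -0.01 in combination against control (0.01 over all 12514 genes), 0.03 in p38i (-0.001 over all genes) and -0.04 in EZH2i (0.01 over all genes). By complex, the largest of these medians belonged to complex II in the combination comparison, 0.29 over 6 genes, of which 4 were positive; it was -0.05 in p38i and -0.13 in EZH2i. The 12 tested complex IV genes had medians of 0.14, 0.12 and 0.09 in combination, p38i and EZH2i against control, with 10, 10 and 7 of 12 positive. The 95% intervals of the log2 fold change were counted separately in each of the 3 comparisons. Each time 80 of the 91 members, not always the same ones, had an interval within 1 on either side of 0. Of all genes, 60.5%, 59.8% and 61.2% had such an interval in combination, p38i and EZH2i.

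**Figure D2:**
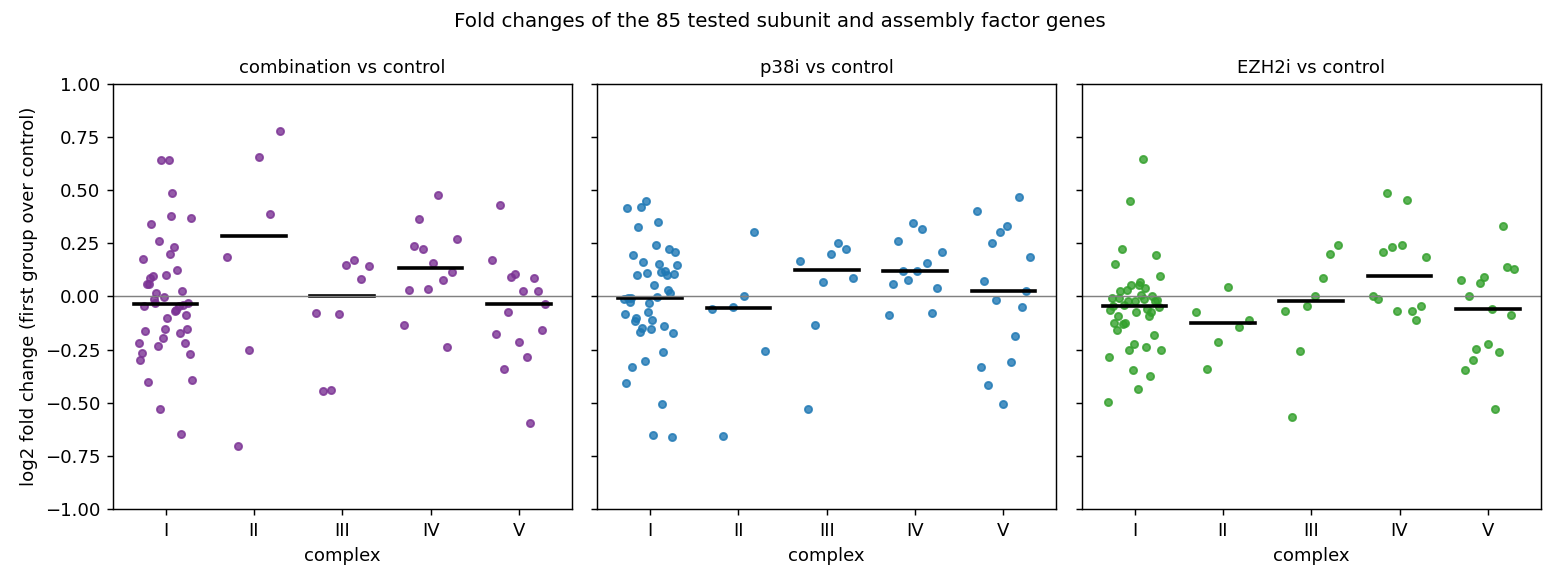
Log2 fold change over control (vertical axis) of the 85 tested subunit and assembly factor genes by complex (horizontal axis), for the combination, p38i and EZH2i from left to right. Each point is a gene and each line the median of a complex; all points lie between -0.70 and 0.78, and complex II in the combination comparison has the highest median, 0.29 over 6 genes.

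In complex I, the genes of the catalytic core (the NADH-binding and iron-sulphur subunits) had no call in any comparison. NDUFS7, an iron-sulphur subunit, had 5.45, 7.45 and 6.36 CPM in p38i tumours, each below the controls at 9.57, 10.5 and 10.4, and a log2 fold change of -0.66 ± 0.33 (adjusted p = 0.302); combination tumours (10.8, 10.8 and 5.65) and EZH2i tumours (11.4, 15.7 and 7.42) overlapped the controls. The core genes NDUFS1, NDUFS3, NDUFS8, NDUFV1 and NDUFV2, had log2 fold changes between -0.27 and 0.37 over the 3 comparisons, and the control values overlapped the treated ones in each.

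Among the accessory and assembly genes of complex I, NDUFB7, a small subunit of the membrane arm, was the only member of the respiratory chain above every control in all 9 treated tumours. It had 38.4, 37.2 and 35.5 CPM in combination, 40.9, 37.3 and 42.3 in p38i, 36.6, 66.1 and 44.1 in EZH2i and 34.5, 28.2 and 32.0 in control tumours. Its log2 fold changes were 0.23 ± 0.20 in combination, 0.35 ± 0.20 in p38i and 0.65 ± 0.21 in EZH2i (adjusted p = 0.575, 0.389 and 0.18), and without EZH2i 5-4 the last was 0.35. Of all 12514 genes, 2.79% were likewise higher in all 3 comparisons. NDUFAF6, an assembly factor, had 19.6, 25.5 and 23.8 CPM in combination tumours, above the controls at 12.5, 12.6 and 18.7, with a log2 fold change of 0.64 ± 0.27 (adjusted p = 0.271); p38i tumours (19.4, 16.8 and 24.0) and EZH2i tumours (12.6, 25.9 and 21.4) overlapped the controls. NDUFA1, an accessory subunit essential for assembly, was the lowest complex I gene in EZH2i, where 397, 299 and 395 CPM stood against 390, 448 and 698 in controls (log2 fold change -0.50 ± 0.24, overlapping).

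No complex II gene was called, and SDHB and SDHD varied widely within groups (SD 0.62 and 0.78 on the log2 scale, against a median of 0.31 over all genes tested). SDHC (0.39) varied less, and SDHA (0.17), SDHAF1 (0.26) and SDHAF2 (0.29) lay below that median. SDHA, the flavin subunit, had 72.7, 76.6 and 70.6 CPM in combination, 56.9, 56.8 and 71.4 in p38i, 61.8, 57.2 and 65.0 in EZH2i and 52.0, 65.7 and 74.7 in control tumours. SDHB, the iron-sulphur subunit, had 65.3, 130 and 95.4 CPM in combination, 60.0, 44.2 and 80.7 in p38i, 37.0, 63.9 and 90.4 in EZH2i and 31.6, 50.4 and 100 in control tumours. SDHC, a membrane anchor, had 118, 121 and 90.7 CPM in combination, 95.4, 94.7 and 120 in p38i, 59.0, 60.4 and 110 in EZH2i and 66.6, 62.7 and 121 in control tumours. In each group the same library held the highest value of these genes: combination 9-1, p38i col6, EZH2i 6-1 and control 2-1. SDHD, the other membrane anchor, was highest in the same libraries, with 4.40, 21.8 and 9.73 CPM in combination, 5.11, 4.69 and 7.83 in p38i, 4.47, 5.47 and 10.0 in EZH2i and 3.33, 4.80 and 12.3 in control tumours. Its log2 fold change in the combination was 0.78 ± 0.55 (adjusted p = 0.484), and that of SDHB 0.66 ± 0.42 (adjusted p = 0.443). Leaving out control 2-1 moved them to 1.56 and 1.23, and leaving out combination 9-1 moved SDHD to 0.01, all without a call. SDHAF1, an assembly factor with 8 to 18 counts per library, was the lowest complex II gene in all 3 comparisons, at -0.70, -0.66 and -0.34 in combination, p38i and EZH2i.

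**Figure D3:**
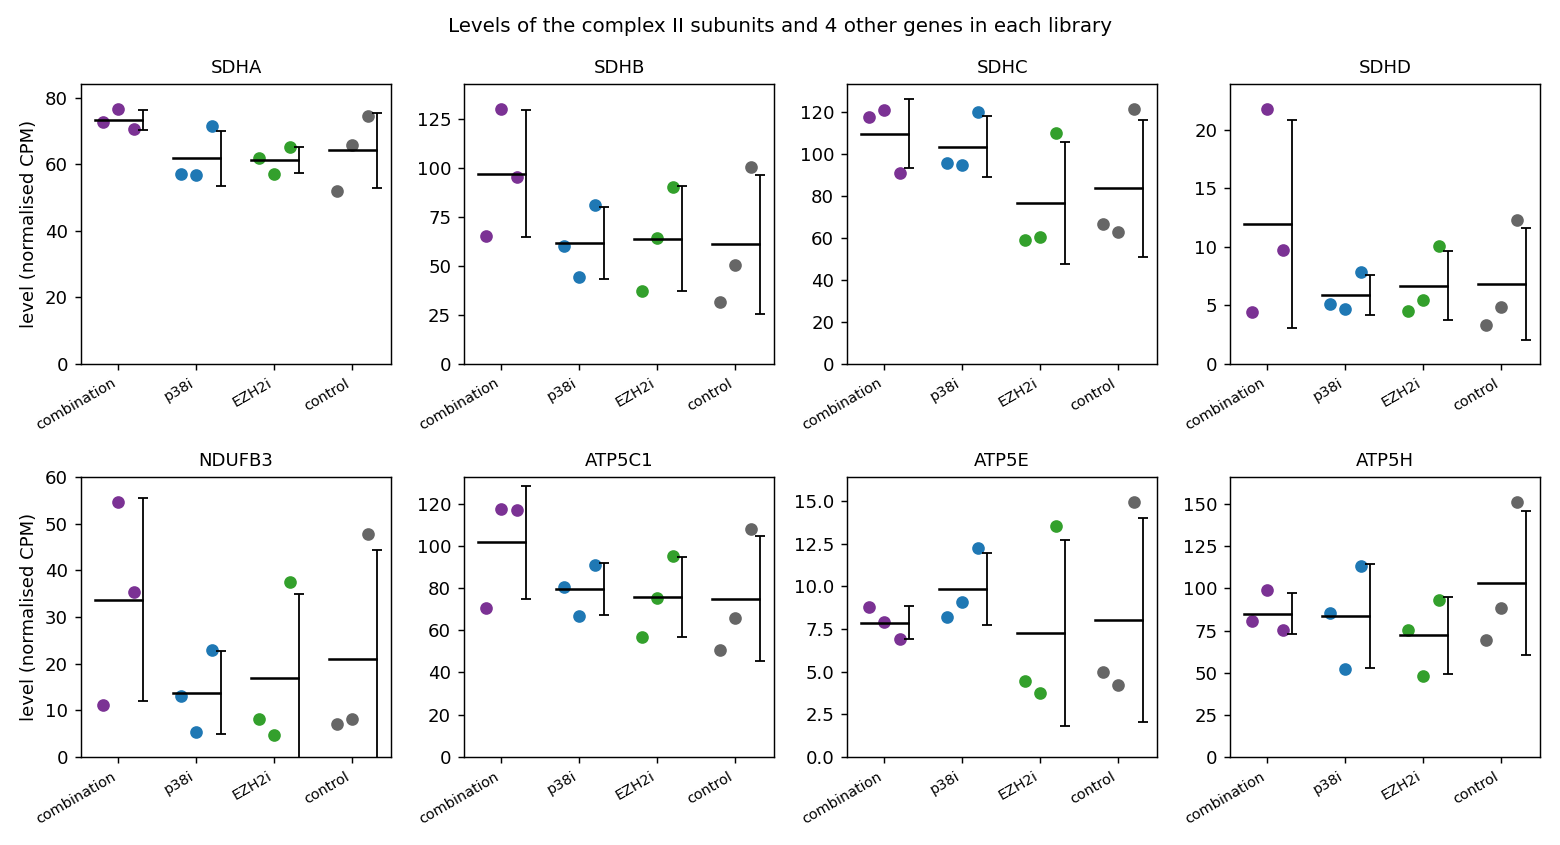
Level of 8 genes (vertical axes, normalised CPM, from 0) in each library, by group: the 4 complex II subunits, and below them NDUFB3, ATP5C1, ATP5E and ATP5H. Points are libraries in the order in which the text lists them, lines are means of 3 and whiskers are SD, cut off at 0 where they would pass below it; NDUFB3 in the control group reads 7.08, 8.11 and 47.9 CPM.

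In complex III, UQCR11, a small subunit of the membrane part, was the only member below every control in all 9 treated tumours. It had 239, 197 and 165 CPM in combination, 209, 188 and 170 in p38i, 237, 147 and 170 in EZH2i and 269, 288 and 261 in control tumours. The log2 fold changes were -0.44 ± 0.18, -0.53 ± 0.18 and -0.57 ± 0.19 in combination, p38i and EZH2i, with adjusted p of 0.266, 0.144 and 0.191, none past the threshold. Of all genes tested, 3.33% were likewise lower in all 3 comparisons. UQCRFS1, the Rieske iron-sulphur protein, was the highest complex III subunit gene in combination (0.17 ± 0.18) and p38i (0.25 ± 0.18), with overlapping groups. UQCRHL, an intronless copy of UQCRH at 5.67 CPM or less, had the highest log2 fold change in EZH2i, 0.45 ± 0.39 (adjusted p = 0.619); reads of the copy and of UQCRH may not be separable.

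In complex IV, the isoform expressed in most tissues was the one measured for each subunit that has a restricted form. COX6A1, the non-muscle form of subunit 6A, had 213, 210 and 206 CPM in combination, 185, 170 and 175 in p38i, 188, 283 and 210 in EZH2i and 149, 158 and 180 in control tumours. Every combination and EZH2i library lay above every control, with log2 fold changes of 0.37 ± 0.16 and 0.49 ± 0.16 and adjusted p of 0.279 and 0.187. COX7A2L, which joins complexes III and IV in supercomplexes, had 81.2, 101 and 101 CPM in combination, 90.0, 91.3 and 72.2 in p38i, 101, 99.2 and 77.7 in EZH2i and 55.4, 60.0 and 87.0 in control tumours. Control 2-1 overlapped each treated group, and the adjusted p were 0.254, 0.405 and 0.297 for log2 fold changes of 0.48, 0.32 and 0.45. COX4I1, the widely expressed isoform of subunit 4, was the lowest complex IV gene in p38i at -0.09 ± 0.17, and COX7C, a small membrane subunit, the lowest in combination (-0.24 ± 0.15) and EZH2i (-0.11 ± 0.15). COX6C, another small accessory subunit, was the highest in p38i at 0.35 ± 0.20. COX6B1, COX7A2, COX7B, COX8A and NDUFA4, the last named for complex I but a subunit of complex IV, had log2 fold changes between -0.07 and 0.27 with overlapping groups.

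The restricted isoforms of complex IV were nearly silent. COX4I2, the lung and hypoxia form, had 0 counts in every library. NDUFA4L2, COX7A1, COX8C and COX6B2 had 2, 6, 7 and 10 counts over all 12 libraries. COX6A2, the heart and muscle form, had 18 counts, of which 16 (3.91 CPM) lay in p38i col6, the library with the high skeletal muscle sum; CKM, the muscle creatine kinase, had 111 CPM there and at most 2.21 CPM elsewhere. The part of muscle tissue, which would be of the mouse, in that value was not tested. COX7B2, a testis form, had 45 counts, 20 of them (6.28 CPM) in combination 9-2. The other untested members were NDUFC2-KCTD14 and ATP5J2-PTCD1 at 0, and NDUFAF4P1, NDUFA6-AS1, SDHAP1, SDHAP2, SDHAP3 and UQCRBP1 with 8 to 78 counts in all.

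In complex V, the F1 head, the c ring and the stalks had no gene past the threshold. ATP5I, the e subunit of the membrane part, had 257, 158 and 148 CPM in combination, 250, 238 and 259 in p38i, 287, 246 and 176 in EZH2i and 319, 324 and 208 in control tumours. Its log2 fold change in the combination was -0.59 ± 0.23 (adjusted p = 0.252), with combination 8-1 above control 2-1. ATP5G2, 1 of 3 genes for the same c ring peptide, had 362, 347 and 396 CPM in p38i tumours, below the controls at 515, 494 and 558 (log2 fold change -0.50 ± 0.18, adjusted p = 0.162). The other c ring genes lay on the other side in p38i, at 0.30 for ATP5G1 and 0.33 for ATP5G3, with overlapping groups, and in combination all 3 lay between -0.21 and 0.11. ATP5J, coupling factor 6 of the stalk, had 191, 240 and 265 CPM in p38i tumours, above the controls at 150, 187 and 167 (0.47 ± 0.17, adjusted p = 0.168), and 182, 260 and 191 in EZH2i tumours, which overlapped them (0.33 ± 0.17). ATP5B, the catalytic beta subunit, had 242, 236 and 219 CPM in p38i tumours against 290, 257 and 330 in controls, without overlap (-0.33 ± 0.15, adjusted p = 0.258). ATP5C1, the gamma shaft of the head, was the highest complex V gene in the combination at 0.43 ± 0.28, and ATP5H, a stalk subunit, the lowest in EZH2i at -0.53 ± 0.33, both with overlapping groups.

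**Figure D4:**
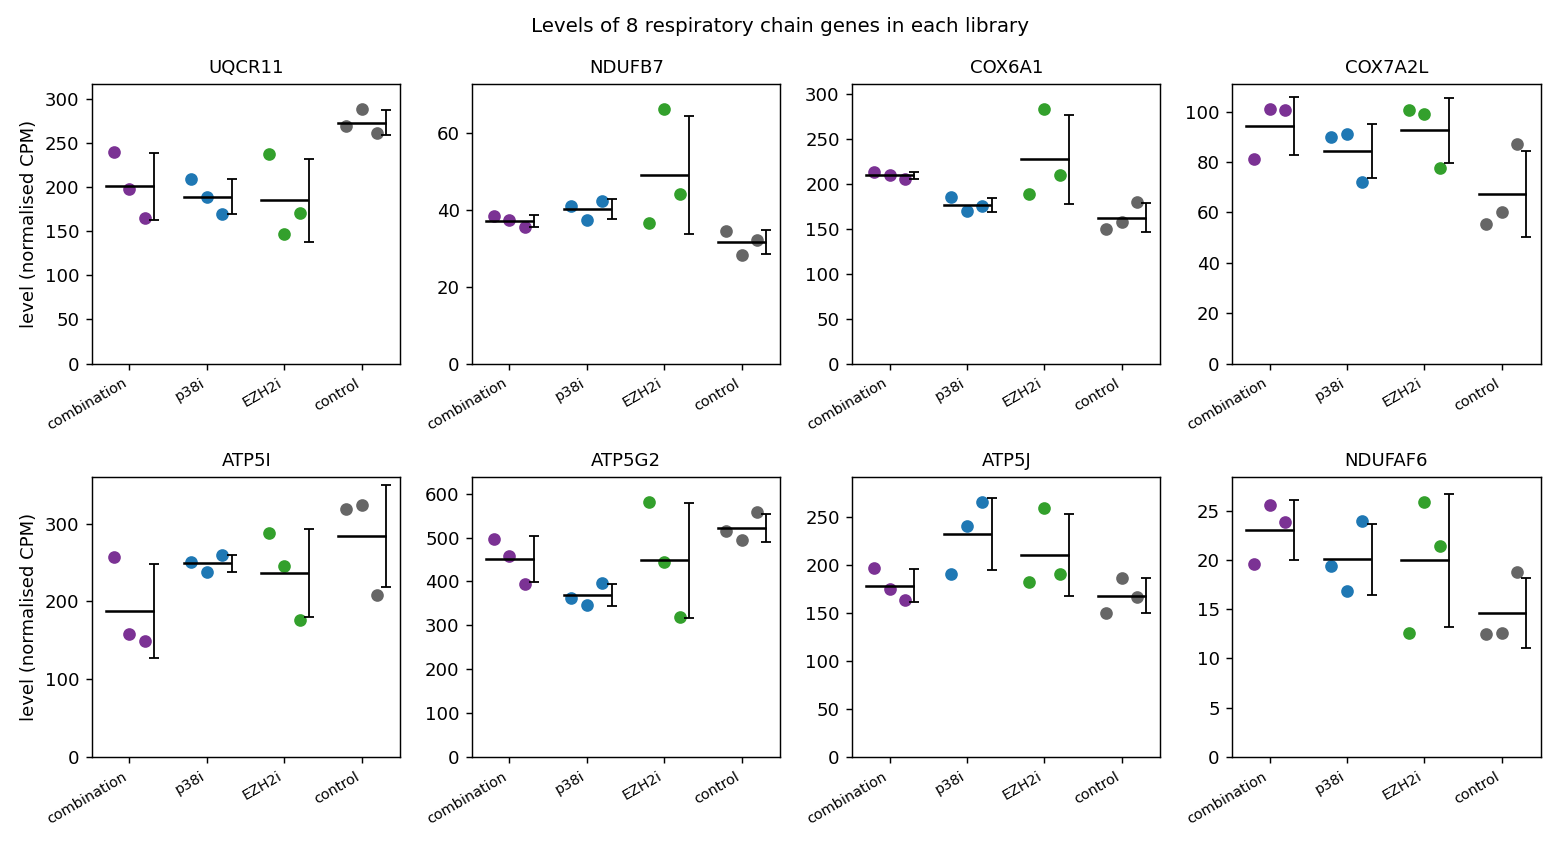
Level (vertical axes, normalised CPM, from 0) of 8 genes in each library, by group. Points are libraries in the order in which the text lists them, lines are means of 3 and whiskers are SD; all 9 treated UQCR11 points lie below the 3 controls at 261 to 288 CPM, and all 9 treated NDUFB7 points lie above the 3 controls at 28.2 to 34.5 CPM.

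Without overlap with the controls, 12 of the 91 members stood apart in combination (22% of all genes), 18 in p38i (24.8% of all genes) and 7 in EZH2i (16.4% of all genes). The members' shares were 13.2%, 19.8% and 7.69%, below those of all genes in each case. In combination 4 were higher and 8 lower (10.7% and 11.2% of all genes), in p38i 7 and 11 (12.3% and 12.5%), and in EZH2i 3 and 4 (8.32% and 8.09%). SDHAF1 (lower in combination and p38i), COX7C (lower in combination) and UQCRHL (higher in EZH2i) were among these. Not every such member is named in the text. UQCRB, the ubiquinone-binding protein of complex III, stood apart in combination with 710, 540 and 641 CPM against 767, 889 and 904 in controls (log2 fold change -0.44, adjusted p = 0.282). It was chosen for mention after its values were seen.

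Whether the second inhibitor changed what the first did was asked by setting the combination against each single agent and by the interaction, the combination minus both single agents plus control on the log2 scale. edgeR called 0 members in combination against p38i and 0 in combination against EZH2i, where 0% of all genes were called in each, and 0 in the interaction, where 0.024% of all genes were called; DESeq2 and limma-voom called 0 members too. At an unadjusted p under 0.05 edgeR had 9 members against p38i (9.89% of the members, 7.81% of all genes). It had 1 against EZH2i (1.1% and 3.12%) and 5 in the interaction (5.49% and 13.1%). Against p38i, 14 members did not overlap (15.4% of the members, 15% of all genes), and against EZH2i 6 (6.59% and 7.11%). Both shares against p38i lay above those of all genes, a difference that was not tested. The medians over the members were -0.05 against p38i, 0.00 against EZH2i and -0.05 for the interaction. ATP5J had the smallest interaction p among the members (adjusted p = 0.224, log2 value -0.71 ± 0.25): it had 197, 175 and 163 CPM in combination, 191, 240 and 265 in p38i, 182, 260 and 191 in EZH2i and 150, 187 and 167 in control tumours. It is named for that p, after its values were seen.

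Inside the groups, a small set of members differed between tumours far more than the rest. The median SD within groups was 0.24 on the log2 scale over the members and 0.31 over all genes tested, so most members varied less than the median gene. Members and other genes were not matched for level in this comparison. NDUFB3, an accessory subunit of the membrane arm of complex I, ranked 71 of 12514 in this spread, at an SD of 1.30. It had 11.1, 54.6 and 35.5 CPM in combination, 13, 5.24 and 23.0 in p38i, 8.13, 4.72 and 37.5 in EZH2i and 7.08, 8.11 and 47.9 in control tumours, a ratio of 11.6 between the highest and the lowest library, whereas NDUFA2, the steadiest member, had a ratio of 1.32. Its log2 fold changes of 0.64, -0.65 and -0.43 in combination, p38i and EZH2i became 2.15, 0.86 and 1.07 without control 2-1, with no call. SDHD (SD 0.78) and SDHB (0.62) came next among the genes that were highest in the same library of each group. NDUFB3 and the SDH genes were chosen for this description after their values were seen.

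This order was compared with the strongest pattern inside groups of the 12423 tested genes that are not members, their first principal component after removal of group means, which held 27.4% of that variance. Its top libraries were combination 9-1 (score 14.1), p38i col6 (16.1), EZH2i 6-1 (23.9) and control 2-1 (39.9). In the combination group 9-2 scored nearly as high (10.7), and 8-1 lay far below both (-24.8). In 11 of the 91 members the top library of every group was the highest of its group, against 6.45% of all genes: NDUFB3, NDUFB6, NDUFC1 and the assembly factor NDUFAF1 of complex I, SDHA, SDHB, SDHC and SDHD, and ATP5A1, ATP5C1 and ATP5H. These are 4 of 45 tested genes of complex I, 4 of 6 of complex II, 0 of 9 of complex III, 0 of 12 of complex IV and 3 of 19 of complex V. The reverse, the lowest value in the top library of all 4 groups, held for 5 members (3.35% of all genes), namely NDUFB11, NDUFA5, NDUFA10, NDUFA9 and COX4I1. The component follows no treatment, since group means were removed, and what sets these tumours apart was not tested. The library p38i col6 among them is also the one with the high muscle sum; the sums of muscle markers were 69.1 CPM in combination 9-1, 97.3 in EZH2i 6-1 and 80.8 in control 2-1.

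**Figure D5:**
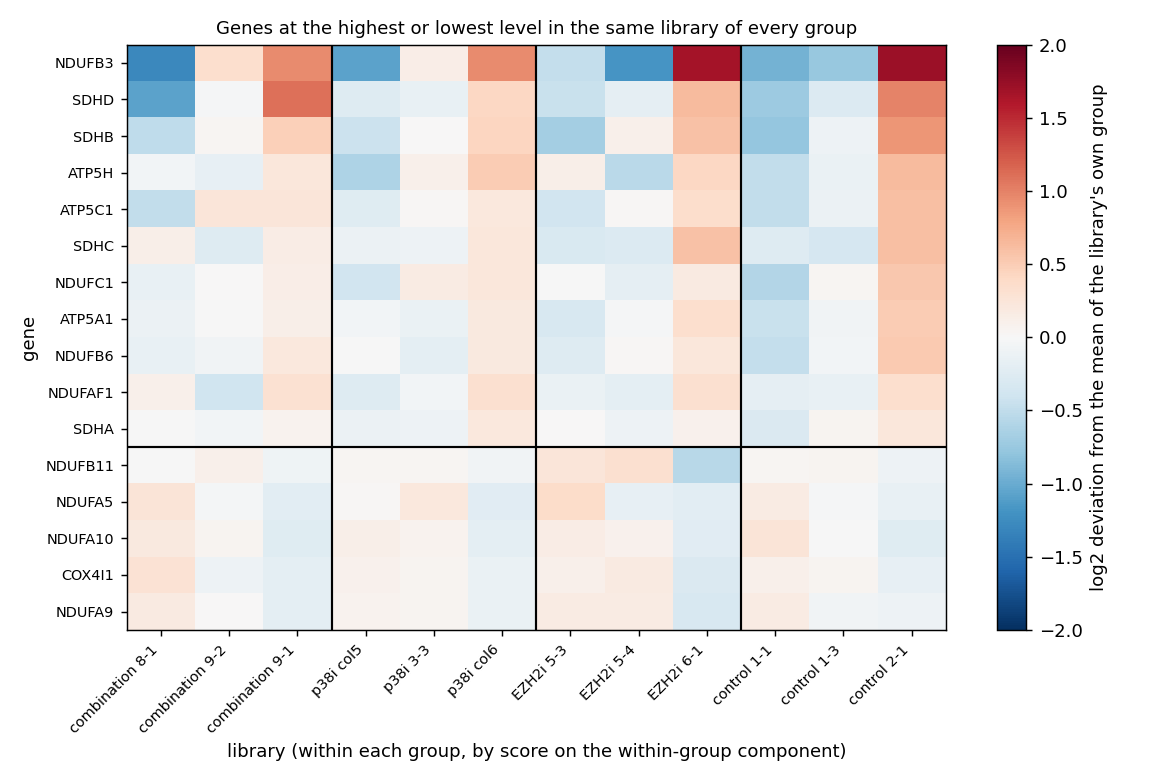
Deviation of each library from the mean of its own group (colour, log2 scale, red above and blue below) for the 11 genes highest and, under the line, the 5 genes lowest in the top library of every group. Libraries run along the horizontal axis by group and, within a group, by rising score on the component of the non-member genes; NDUFB3, SDHD and SDHB in the top rows show the widest differences.

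Genes that work with the respiratory chain but fall outside the symbol rule were likewise not called. Of 8 tested complex III assembly and electron carrier genes, 10 complex I assembly factors, 21 complex IV assembly and copper delivery genes and 6 further ATP synthase genes, 0 were called by edgeR in any comparison with control. At an unadjusted p under 0.05, in either direction, the first list had 2, 3 and 1 genes in combination, p38i and EZH2i, the second 0, 0 and 1, the third 3, 1 and 0, and the last 0 in each. Of all genes tested, 16.3%, 18.4% and 14.7% passed that cut in the same comparisons. UQCC1, which helps to make cytochrome b, was the lowest of its list in all 3, at -0.51, -0.57 and -0.61 in combination, p38i and EZH2i (adjusted p = 0.270, 0.169 and 0.213). CYCS, cytochrome c, was the highest in combination (0.57) and EZH2i (0.56). None of 14 tested regulators of respiratory genes, 12 TCA cycle genes and 6 membrane carriers was called either. MYC was the highest regulator in combination at 1.08 ± 0.66 (adjusted p = 0.432) and POLRMT, the mitochondrial RNA polymerase, the lowest at -0.92 ± 0.32 (adjusted p = 0.230). In p38i against control, where 1.77% of all genes were called, some genes in the lists of other processes were called. ANGPTL4 of the 14 hypoxia and glycolysis genes fell by 1.34 (adjusted p = 0.0433), and PDGFRB of the 6 fibroblast markers fell by 2.03 (adjusted p = 0.0433). The mitotic genes KIF2C (1.14) and BUB1 (1.18) of the 18 G2/M genes rose (adjusted p = 0.0430 and 0.0461). Whether these lists differ from the members in their share of calls was not tested. Of the whole lists, 10 of the 14 hypoxia and glycolysis genes were positive (median 0.16), and 2 of the 6 fibroblast markers were (median -0.14), with PDGFRA at 1.23. All 18 G2/M genes were positive (median 0.78). Over all genes, the 221 calls of that comparison became 2 without p38i 3-3, 7 without p38i col5, 2 without p38i col6, 32 without control 1-1 and 3 without control 1-3.

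Some members share sequence with other loci, which limits how their counts are read. A pseudogene named after the gene is annotated for 46 of the 94 genes. Among the genes that varied together within groups, SDHA has 3, SDHC 4 and SDHD 3 such pseudogenes, while SDHB and NDUFB3 have 0. Whether reads of those loci enter the counts was not tested. ATP5E, the epsilon subunit, had 3.73 to 14.9 CPM while its processed copy ATP5EP2 was listed with 125 to 204 CPM, and ATP5L (1113 to 1735 CPM) stood beside ATP5L2 (30.6 to 58.1 CPM). For these pairs and for UQCRH with UQCRHL the counting step could place reads of 1 transcript on either gene, and their single values are uncertain.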

How the data were processed

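The labels' protocols put 1.3 µg of total RNA into each library. They name both a SMARTer mRNA kit and QuantSeq, so whole-transcript and 3' reads cannot be told apart here. Per the submitters' processing notes, Trim Galore 0.5.0, STAR 2.6.0 and hg19 were used; the counting program, annotation and strand use are not given in the sources used here. The deposited values are raw counts per gene symbol; the 3 lines without a gene name were dropped (0 counts). Whether the 3 tumours of a group are separate animals is not stated, and p-values measure the spread between them.

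Genes were filtered with filterByExpr and tested with edgeR 4.0.16 (R 4.3.3; TMM scaling, robust quasi-likelihood F tests, two-sided, 1 model over all 12 libraries; biological coefficient of variation 0.219), Benjamini-Hochberg adjusted over 12514 genes at 0.05. Every p of the report comes from this fit unless another tool is named. The code was tested on simulated counts with known changes. CPM use TMM-scaled library sizes. The members, the lists and the rule for named genes were chosen with earlier results of these data known: the rule names the highest and lowest member of each complex in each comparison with control, the paired isoforms, the complex I core, the members too low to test, and the called or extreme genes of each other list. Alternatives were other scalings, filters, tools, sample sets, each library left out in turn, and, chosen after seeing the data, a covariate for the within-group component. Figures were drawn with matplotlib. The values of 1 member that the rule names are not reported here.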

Additional observations from a re-analysis of the deposited data

How the results depend on the processing

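The count of members called by adjusted p stayed at 0 in all 6 comparisons with RLE size factors, library totals alone, DESeq2, limma-voom, no filter on low counts, a mean of at least 5 CPM, only the 2 groups compared (not run for the interaction, which needs all 4), and each of the 12 libraries left out in turn. An alternative chosen after seeing the data was the within-group component as a covariate in edgeR. It called 600 of the 12514 genes in combination against control and 886 in p38i against control. Among these were 4 of the 91 members in combination and 1 of the 91 in p38i. In the combination these were SDHB (log2 fold change 0.79, adjusted p = 0.0163), NDUFB6 (0.54, 0.0387), ATP5C1 (0.48, 0.0471) and ATP5I (-0.61, 0.0358), and in p38i it was ATP5A1 (0.45, 0.0443); against these stand adjusted p of 0.443, 0.299, 0.441, 0.252 and 0.351 without the covariate. The component was derived from the same libraries, which the covariate fit's p-values leave out of account. Without control 2-1 the smallest adjusted p of a member was 0.0587 in the combination comparison. Counts over all genes moved more: in combination against control 1 gene was called by edgeR, 167 by DESeq2, 229 without control 2-1 and 600 with the covariate; in p38i 221, 620, 568 and 886, and 2 without p38i col6. No paired analysis was possible because the groups share no replicate numbers. How far depth and the 3 tumours per group limit single genes was not tested apart. Counted separately in each comparison with control, 80 of the 91 members had 95% intervals within 1 of 0 on the log2 scale. They were not always the same members.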
